A study of Mus musculus with 12 samples.

Results

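The 9 genes described here are Actb, Actg1, Gapdh, Hprt, Tbp, Ppia, Rplp0, Gusb and Ywhaz, which are in common use as reference genes for quantitative PCR (qPCR) in the mouse. They were picked by name as genes in common use, by a rule that uses no measured value, though with earlier results of these data known. Each of the 9 matched 1 row among the 55487 genes of the RNA sequencing tables. All 9 passed the filter on low counts, together with 19581 genes in all. The study compared small intestine (SI) and large intestine (LI) epithelium of C57BL/6 mice, as freshly isolated crypts and as primary monolayers plated from such crypts. There were 12 libraries, 3 in each of 4 groups. SI tissue was crypts of the jejunum released with EDTA, and LI tissue was crypts of the large intestine released with collagenase, dispase and DNase followed by EDTA, so that region and digestion cannot be told apart in tissue. Each tissue library came from 1 mouse, and SI and LI were taken from the same mice. SI monolayers and LI monolayers were grown for 24 h in control media with Wnt3a, EGF, Noggin and R-spondin, and each library pooled several wells. Mice were male or female, untreated and wild type, aged 6 to 10 weeks. The p-values below rest on the spread between the 3 libraries of a group, estimated in 1 model that all 4 groups share. This spread lies between mice in tissue and between pools of wells in monolayers. A p between monolayers thus also draws on the spread between mice.

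A reference gene is measured beside a target so that differences in the amount of RNA or in the reverse transcription cancel out. The target is then read as a ratio, and the ratio follows the target only where the reference itself holds its level between the samples compared. The genes in common use have housekeeping roles in the cytoskeleton, glycolysis, nucleotide salvage, transcription, protein folding, translation, lysosomal breakdown and signalling, and their RNA is abundant in most tissues. These roles are not constant between tissues or growth states. Crypt cells that are plated on a surface spread, rebuild their actin cytoskeleton and divide, while freshly isolated crypts carry other cells of the mucosa with them. The study's own qPCR values were normalised to Actb.

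Depth was even, at 59016196 to 76216530 counts per library, and 3 counts correspond to 0.0394 to 0.0508 CPM, counts scaled to the library total. The 6 epithelial markers, Epcam and keratins among them, summed to 11722 to 12640 CPM in SI tissue and 26720 to 27283 in SI monolayers. LI tissue had 21033 to 21701 CPM, and LI monolayers had 33951 to 34684. Of these 6, 4 were called higher and 2 lower in SI culture, against 4 higher and 1 lower in LI culture. Epcam itself ran against the sum, with 1450 to 1558 CPM for SI crypts and 1269 to 1316 for SI monolayers. LI crypts had 1856 to 1975 CPM of Epcam, and their monolayers had 1350 to 1418. The 5 proliferation markers summed to 603 to 683 and 872 to 897 CPM in SI and to 536 to 578 and 742 to 792 in LI, and 4 of 5 were called higher in monolayers in both regions. The 8 immune markers, led by Ptprc, summed to 113 to 157 CPM in SI tissue, 26.2 to 34.3 in LI tissue, 8.14 to 9.69 in SI monolayers and at most 3.41 in LI monolayers, and all 8 were lower in monolayers in both regions. The 9 mesenchymal markers summed to 7.06 to 22.8 CPM in SI tissue and 9.36 to 19.0 in SI monolayers. LI libraries had more, at 33.7 to 67.3 CPM for tissue and 31.2 to 52.1 for monolayers. Set against LI, 6 of the 9 were called at least 2-fold lower for SI tissue, and 6 of 9 likewise for SI monolayers. Mitochondrial genes held 4.56% to 9.16% of the counts in SI tissue, 2.25% to 2.59% in LI tissue and under 1% in monolayers. LI tissue library 1 stood apart in smooth muscle markers, with Myh11 at 10.2 CPM against 0.699 and 0.289 CPM in the other two. In bulk RNA, fewer cells of a type and less RNA per cell cannot be told apart, and the part of these shifts in the results below was not tested.

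Both cytoplasmic actins are encoded by separate genes with similar coding sequences. These sequences are shown first because they set how far reads of one can be told from reads of the other. Actb lies at chr5:142903115-142906754 on the minus strand of GRCm38 and Actg1 at chr11:120345690-120348542, also on the minus strand. The first 75 coding bases are at chr5:142905612-142905686 and chr11:120348017-120348091, and capitals mark the bases that differ.
Actb: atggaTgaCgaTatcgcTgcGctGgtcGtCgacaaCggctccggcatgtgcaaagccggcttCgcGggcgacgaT
Actg1: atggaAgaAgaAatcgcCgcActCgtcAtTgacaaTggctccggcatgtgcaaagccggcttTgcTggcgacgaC
These stretches differ at 12 bases, and the whole coding sequences differ at 128 of 1125 bases, an identity of 88.6%. The longest run of coding bases that both share was 62 bases.

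Copies of the reference genes elsewhere in the genome are a second limit on what a count of reads, or a qPCR primer, sees. Of the Gapdh messenger RNA, 85.8% of all stretches of 100 bases also occurred in the transcript of another annotated gene, and 133 annotated copies had at least 90% identity over at least 80% of the coding sequence. For Ppia the share was 37.7% with 28 copies, for Actg1 51.1% with 9 copies, for Rplp0 18.3% with 4 copies and for Ywhaz 17.1% with 1 copy. Actb, with 1 copy, shared 1.10% of such stretches. Hprt, Tbp and Gusb had no copy and no shared stretch. Over the 12 libraries the copies held 7.93% to 8.95% of the counts of Ppia and its copies together. The same share was 3.87% to 4.53% for Actg1, 2.78% to 3.41% for Rplp0, 1.60% to 1.96% for Gapdh and 0.931% to 1.22% for Ywhaz. Adding the copies' counts to their parent gene changed no call for these 5 genes save that for Ywhaz in the test of region and preparation described near the end. Tbp shared 2582 exon bases, 19.0% of its exons, with Pdcd2 on the opposite strand, and whether the counting used strand is not given in the sources used here.

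Most of the reference genes rose in culture. In SI monolayers 7 of 9 were higher than in SI tissue and none was lower at an adjusted p under 0.05, where 59.6% of all tested genes were called, 29% higher and 30.6% lower. Their median log2 fold change was 0.88, against -0.05 over all genes tested. In LI monolayers 7 of 9 were higher and 1 was lower than in LI tissue, where 68.7% of all genes were called, 32.1% higher and 36.6% lower, and the median was 0.82 against -0.05. A change of at least 2-fold was called for 4 members in SI (26.1% of all genes) and for 1 in LI (38% of all genes). Between regions 7 of 9 differed in tissue, 2 higher and 5 lower in SI, where 53.9% of all genes were called, 29.2% higher and 24.7% lower, and with any 1 library left out 5 to 6 did. Between SI and LI monolayers 5 of 9 differed, 4 of them higher in SI, where 51.8% of all genes were called, 27% higher and 24.9% lower. Without SI monolayer library 3 or LI monolayer library 2 this count was 3, as Actg1 and Ywhaz were no longer called. None differed at least 2-fold between regions, where 22.7% of all genes did in tissue and 21.2% in monolayers.

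A p that misses the threshold does not show a steady level, so the 95% interval of each change was also set against a bound of 0.5 on the log2 scale in either direction. In SI culture the intervals of Tbp and Rplp0 lay within the bound, as did those of 21.6% of all genes. In LI culture those of Gapdh, Tbp and Ppia did (15% of all genes). Between tissues 6 members did, all but Actb, Actg1 and Rplp0 (27.6% of all genes), and between monolayers 6 did, all but Actg1, Gapdh and Ppia (28.2% of all genes). Only Tbp stayed within the bound in all 4 comparisons, as 1295 genes or 6.61% of those tested did. Actg1 was within it in none of the 4.

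**Figure D1:**
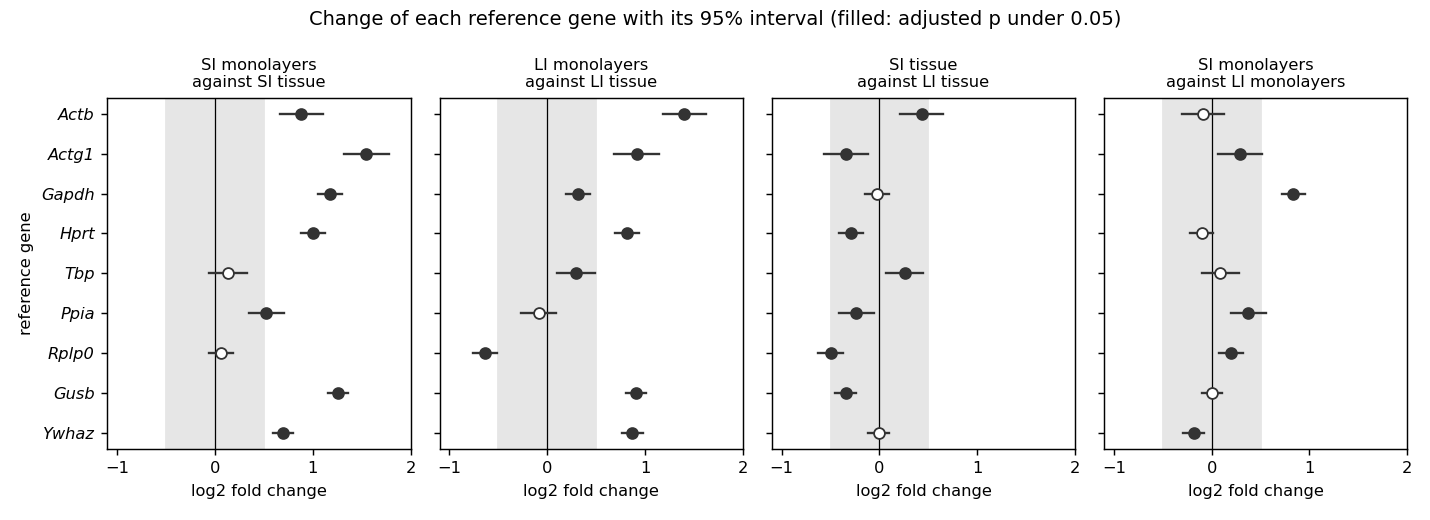
Log2 fold change of each reference gene in the 4 pairwise comparisons (points, filled where the adjusted p was under 0.05) with its 95% interval (lines) and the band from -0.5 to 0.5 shaded. In SI culture 7 of 9 points lie to the right of 0 and are filled, and Tbp alone has all 4 intervals inside the band.

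Actb encodes beta-actin, the main non-muscle actin of the cell cortex and stress fibres. Its normalized counts were 161101, 170171 and 131336 in SI tissue and 272762, 277018 and 281815 in SI monolayers. In LI tissue they were 136004, 116546 and 100654, and in LI monolayers 279812, 313924 and 308391. Every monolayer library lay above every tissue library, and the 2 tissue groups overlapped, as did the 2 monolayer groups. Actb rose in SI culture by 0.88 ± 0.10 (SE) on the log2 scale, on which all changes below are given with their SE (adjusted p = 4.62e-06) and in LI culture by 1.40 ± 0.10 (adjusted p = 2.74e-08). In tissue it was 0.43 ± 0.10 higher in SI than in LI (adjusted p = 0.00246), and between monolayers the interval of the difference was -0.30 to 0.13. Its group means spanned 2.57-fold, from LI tissue to LI monolayers, and single libraries spanned 3.12-fold.

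Actg1 encodes gamma-actin, which is built into the same filaments and is abundant in the brush border. Normalized counts of Actg1 were 78991, 82780 and 71983 in SI tissue and 215620, 217983 and 232627 in SI monolayers. They were 118379, 81463 and 105023 in LI tissue and 173804, 189632 and 192469 in LI monolayers. The order was not that of Actb: SI monolayers were highest and did not overlap any other group, and the tissue groups overlapped each other. Culture raised Actg1 by 1.55 ± 0.11 in SI (adjusted p = 3.73e-08) and by 0.91 ± 0.10 in LI (adjusted p = 3.96e-06). In tissue SI was lower by 0.34 ± 0.10 on the log2 scale (adjusted p = 0.0137), opposite in sign to Actb, and in monolayers SI was higher by 0.29 ± 0.10 (adjusted p = 0.0327), a call lost under 9 of 20 alternatives, with adjusted p up to 0.172. LI tissue library 1, the library with the most Myh11, had the highest Actb and Actg1 of its group. Without it the changes in LI culture were 1.51 for Actb and 1.03 for Actg1, so that 2 members in place of 1 reached 2-fold there, and the difference of Actg1 between tissues was -0.23 (adjusted p = 0.0577). That call was also lost without SI tissue library 3 (-0.29, adjusted p = 0.0807) and without LI tissue library 3 (-0.31, adjusted p = 0.0589).

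Of 19 tested genes of actin filaments and their turnover, 17 rose and none fell in SI culture, and 16 rose and 1 fell in LI culture, with median log2 fold changes of 0.73 and 0.97. Over all tested genes 29% rose and 30.6% fell in SI culture, and 32.1% rose and 36.6% fell in LI culture. These shares are the background for this and every gene list below, and a count near them sets no list apart. Acta1, the skeletal muscle actin, rose by 5.12 ± 0.34 (SE) in SI and 5.34 ± 0.34 in LI, and Tpm4, a tropomyosin of non-muscle filaments, by 2.56 ± 0.07 and 2.01 ± 0.07. Srf, the transcription factor that drives many actin genes through the CArG box, rose by 0.73 ± 0.06 in SI and 1.13 ± 0.06 in LI. A stretch of 80 bases upstream of Actg1 is shown because it holds that box, in capitals, in the promoter windows of RefSeq on GRCm38.p6 (chr11:120348546-120348625, minus strand).
Actg1 upstream: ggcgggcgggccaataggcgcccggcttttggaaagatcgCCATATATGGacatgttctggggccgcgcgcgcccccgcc
The box, written as CC, 6 bases of A or T, and GG, was searched on both strands in windows of 250 bases before and 50 after each start, and 1.63% of 32851 windows held it. Of the 7 members with a window, Actg1 alone held it, while Actb and Ywhaz had no window in the table used.

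Gapdh encodes the glycolytic enzyme glyceraldehyde-3-phosphate dehydrogenase and lies at chr6:125161715-125166467. In SI tissue the normalized counts were 125956, 118127 and 107111, and they were 257587, 256382 and 260158 in SI monolayers. LI tissue had 118179, 124865 and 123804, and LI monolayers had 141218, 150120 and 150980. SI monolayers stood far above the other 3 groups, and the tissue groups overlapped. Gapdh rose in SI culture by 1.18 ± 0.06 (adjusted p = 6.21e-11) but in LI culture by only 0.32 ± 0.06 (adjusted p = 1.19e-04). The difference between regions was 0.84 ± 0.06 in monolayers (adjusted p = 4.30e-09), the largest of any member, and in tissue its interval was -0.14 to 0.10. Of 14 other genes of glycolysis, 12 rose and 1 fell in SI culture, and 3 rose and 8 fell in LI culture. The gene most like Gapdh over the 12 libraries was Pgk1, the next enzyme of the pathway and another common reference gene, with Pearson r = 0.993. Pgk1 rose by 1.53 ± 0.05 in SI and 0.34 ± 0.05 in LI. Eno1, which makes phosphoenolpyruvate, rose in both regions, by 1.20 ± 0.07 and 1.29 ± 0.07.

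Hprt encodes the purine salvage enzyme hypoxanthine-guanine phosphoribosyltransferase and lies at chrX:52988137-53021659. In SI tissue its normalized counts were 5903, 5690 and 6271, and they were 11805, 11701 and 11441 in SI monolayers. They were 7008, 7665 and 7752 in LI tissue and 12179, 12777 and 13353 in LI monolayers. No group overlapped its neighbour in the order of means, from SI tissue through LI tissue and SI monolayers to LI monolayers. Hprt rose by 1.002 ± 0.057 in SI culture (adjusted p = 3.81e-10) and by 0.82 ± 0.06 in LI culture (adjusted p = 1.87e-09). SI tissue was lower than LI tissue by 0.29 ± 0.06 on the log2 scale (adjusted p = 4.39e-04), and the 95% interval between monolayers was -0.22 to 0.02. Of 17 other genes of purine salvage and synthesis, 13 rose and 3 fell in SI culture, and 14 rose and 3 fell in LI culture. Adss, which makes adenylosuccinate from IMP, rose by 1.01 ± 0.06 in SI and 2.13 ± 0.06 in LI, and Xdh, which breaks purines down to urate, fell by 2.79 in SI and by 2.06 in LI on the log2 scale.

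Tbp encodes the TATA-binding protein, the subunit of TFIID that binds promoter DNA, and lies at chr17:15499888-15528379. Its normalized counts were 1342, 1307 and 1361 in SI tissue and 1500, 1430 and 1358 in SI monolayers. In LI tissue they were 1059, 1223 and 1169, and in LI monolayers 1557, 1219 and 1329. The group means spanned only 1.24-fold, while LI monolayers ranged over the widths of 2 other groups, with library 1 the highest of all 12. The interval of the change in SI culture was -0.06 to 0.32, and the change in LI culture was 0.30 ± 0.09 (adjusted p = 0.00834). That call was lost without LI monolayer library 1, where the change was 0.12 (adjusted p = 0.210), and with upper quartile scaling, where it was 0.18 (adjusted p = 0.0812). SI tissue was higher than LI tissue by 0.26 ± 0.09 (adjusted p = 0.0252), a call that was lost under 14 of 20 alternative settings, with adjusted p from 0.0220 to 0.120. Between monolayers the interval was -0.10 to 0.28. Of 18 tested genes of TFIID and the basal factors, 9 rose and 5 fell in SI culture, and 11 rose and 2 fell in LI culture. Btaf1, which removes TBP from DNA, rose by 0.69 ± 0.06 in SI and 1.45 ± 0.07 in LI.

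Ppia encodes cyclophilin A, a prolyl isomerase, and lies at chr11:6415443-6419817. Normalized counts of Ppia were 48022, 43618 and 53917 in SI tissue and 67805, 67295 and 69110 in SI monolayers. They were 51482, 61109 and 63560 in LI tissue and 53018, 52688 and 54940 in LI monolayers. SI monolayers were above every other library, and the other 3 groups overlapped in part. Ppia rose in SI culture by 0.52 ± 0.08 (adjusted p = 5.68e-05), and in LI culture the interval of its change was -0.27 to 0.09. The change in LI culture was called lower under 2 of 20 alternatives. It was -0.20 with upper quartile scaling (adjusted p = 0.0350) and -0.18 without LI tissue library 1 (adjusted p = 0.0412). Ppia was lower in SI than in LI tissue by 0.24 ± 0.08 on the log2 scale (adjusted p = 0.026). It was higher in SI than in LI monolayers by 0.38 ± 0.08 (adjusted p = 0.00134). The call in tissue was lost under 4 of 20 alternatives, with adjusted p from 0.00155 to 0.124. Of 13 other cyclophilin genes, 6 rose and 2 fell in SI culture and 8 rose and 4 fell in LI culture, where 59.6% and 68.7% of all genes were called. Ppid, a partner of Hsp90, rose by 1.19 ± 0.05 and 1.53 ± 0.05.

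Rplp0 encodes P0, the acidic protein at the base of the stalk of the large ribosomal subunit, and lies at chr5:115559467-115563727. Libraries of SI tissue had normalized counts of 162883, 155671 and 179165, and counts were 168673, 167090 and 170641 in SI monolayers. In LI tissue they were 240679, 228992 and 253672 and in LI monolayers 149824, 147977 and 152632. LI tissue stood above the other 9 libraries, which lay between 147977 and 179165. Rplp0 was the only member called lower in culture, by 0.64 ± 0.06 on the log2 scale in LI (adjusted p = 6.25e-08). In SI culture the interval of its change was -0.07 to 0.18. It was lower in SI than in LI tissue by 0.50 ± 0.06 (adjusted p = 2.35e-06) and higher in SI than in LI monolayers by 0.20 ± 0.06 (adjusted p = 0.00979). Of 16 other genes of the large subunit, 14 rose and none fell in SI culture, and 4 rose and 4 fell in LI culture, where their changes ranged from -0.33 to 0.39. Rplp1 and Rplp2, the partners of P0 in the stalk, changed by 0.10 ± 0.07 and -0.04 ± 0.07 in LI culture.

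Gusb encodes beta-glucuronidase, a lysosomal hydrolase that removes glucuronic acid from glycosaminoglycans, and lies at chr5:129989011-130003049. In SI tissue its normalized counts were 3140, 3378 and 3327, and they were 7464, 7705 and 7834 in SI monolayers. They were 4232, 4438 and 4196 in LI tissue and 7754, 7618 and 8039 in LI monolayers. The monolayer groups overlapped and lay far above both tissue groups, which did not overlap. Gusb rose by 1.26 ± 0.05 in SI culture (adjusted p = 5.20e-12) and by 0.91 ± 0.05 in LI culture (adjusted p = 7.84e-11). SI tissue was lower than LI tissue by 0.35 ± 0.05 (adjusted p = 1.81e-05), and between monolayers the interval was -0.10 to 0.11. Of 20 other lysosomal genes, 6 rose and 8 fell in SI culture, and 5 rose and 13 fell in LI culture. Hexa, the alpha subunit of hexosaminidase, fell by 1.03 in SI and by 2.16 in LI on the log2 scale.

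Ywhaz encodes 14-3-3 zeta, an adaptor that binds phosphorylated proteins, and lies at chr15:36770770-36796929. Its normalized counts were 21916, 23456 and 21904 in SI tissue and 36082, 35510 and 34657 in SI monolayers. In LI tissue they were 23662, 23664 and 22247, and in LI monolayers 38902, 42029 and 42263. Both tissue groups overlapped and both monolayer groups lay above them without overlap. Ywhaz rose by 0.69 ± 0.05 in SI culture (adjusted p = 4.90e-09) and by 0.87 ± 0.05 in LI culture (adjusted p = 1.49e-10). In tissue the interval between regions was -0.11 to 0.10, and SI monolayers were lower than LI monolayers by 0.18 ± 0.05 (adjusted p = 0.0048). The other 14-3-3 genes also rose, 6 of 6 in SI and 5 of 6 in LI culture. Ywhag rose most, by 1.62 ± 0.05 and 1.85 ± 0.05. Sfn, the next by the mean of both regions among those called in both, rose by 1.42 ± 0.06 and 0.92 ± 0.06. In LI culture 2 of the 6 rose at least 2-fold, and Sfn was not 1 of them.

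Over all 12 libraries the SD of log2(normalized count + 1) ranked the members as follows. Tbp had the lowest SD at 0.16, at the 10.1 percentile of the 9218 genes with a mean of at least 10 CPM. Ppia followed at 0.21 (20.5 percentile), Rplp0 at 0.28 (31.4) and Ywhaz at 0.40 (49.5). Hprt and Gapdh had 0.48 each (58.6 and 58.9), Gusb had 0.56 (66.5), Actb had 0.61 (70.0) and Actg1 had 0.66 (72.7). The median of the 9 was 0.48, against 0.40 over all 9218 genes. Only 2 of 9 members, Tbp and Ppia, had group means within 1.5-fold of each other, as 27.1% of the 9218 genes did. Group means spanned at least 2-fold for 5 of 9 members and for 47.8% of those genes.

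The order within replicates was different. The SD pooled within the 4 groups was lowest for Gusb at 0.0442, at the 6.43 percentile, and it was 0.0529 for Ywhaz. Hprt (0.0639), Rplp0 (0.0650) and Gapdh (0.0683) came next, all under the median of 0.0854 over the 9218 genes. Tbp and Ppia, the lowest over all libraries, had 0.11 each within groups, and Actb and Actg1 had 0.15 and 0.16. For Gusb the SD over all libraries was 12.8 times that within groups, and for Tbp 1.40 times. A gene with close replicates in a group, such as Gusb, was thus not a gene with the same level in all groups.

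Of 24 further reference genes tested, B2m and Tubb5 among them, 10 rose and 10 fell in SI culture and 10 rose and 12 fell in LI culture, and 10 of 24 had group means within 1.5-fold. B2m, the light chain of MHC class I, fell by 2.03 in SI and by 1.86 in LI on the log2 scale, and Tubb5, a tubulin, rose by 1.40 ± 0.06 and 1.98 ± 0.06. Of 11 genes proposed as housekeeping from human tissue panels, 6 had group means within 1.5-fold.

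**Figure D2:**
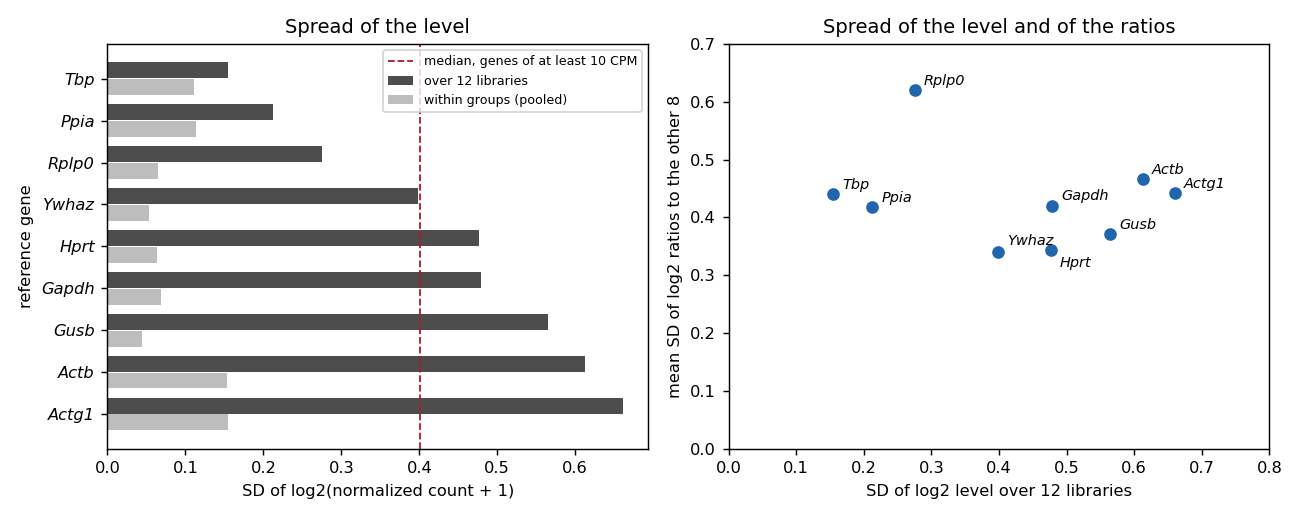
Left, SD of the log2 level of each reference gene over 12 libraries (dark bars) and pooled within groups (light bars), with the median over 9218 genes of at least 10 CPM as a dashed line at 0.40. Right, the SD over 12 libraries against the mean SD of the log2 ratios to the other 8, where Tbp is lowest on the first axis and Ywhaz on the second.

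Ratios between members were then taken in each library from the raw counts, because a ratio within a library needs no scaling. The 36 pairs had SDs of the log2 ratio from 0.12 to 0.85 with a median of 0.39, and in 16 pairs the group means differed by at least 2-fold. Hprt and Gusb kept the closest ratio (SD 0.12, group means within 1.19-fold), although both about doubled in SI culture. The widest pair was Actb and Rplp0, whose ratio spanned 4.12-fold between LI tissue and LI monolayers. The log2 ratio of Actb to Rplp0 was -0.82, -0.97 and -1.33 in the LI tissue libraries and 0.90, 1.09 and 1.01 in the LI monolayer libraries. Actb to Gapdh, a common check of one reference by another, spanned 2.13-fold, and Actb to Actg1 spanned 1.69-fold.

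The mean SD of a gene's ratios to the other members is the measure M of the geNorm method, in which a low value marks a preferred reference. Ywhaz had the lowest M at 0.34, followed by Hprt at 0.34 and Gusb at 0.37. Then came Ppia and Gapdh with 0.42 each, Tbp and Actg1 with 0.44 each, Actb with 0.47 and Rplp0 with 0.62. Tbp thus ranked 1 of 9 by level and 6 of 9 by ratios, Rplp0 ranked 3 and 9, and Gusb ranked 7 and 3. These orders are descriptions of 12 libraries, and both are read from the same counts. Some neighbours by M were close, with overlapping ranges when each library was left out in turn. The ranges were 0.424 to 0.450 for Tbp and 0.422 to 0.455 for Actg1, and 0.329 to 0.348 for Ywhaz and 0.336 to 0.351 for Hprt.

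**Figure D3:**
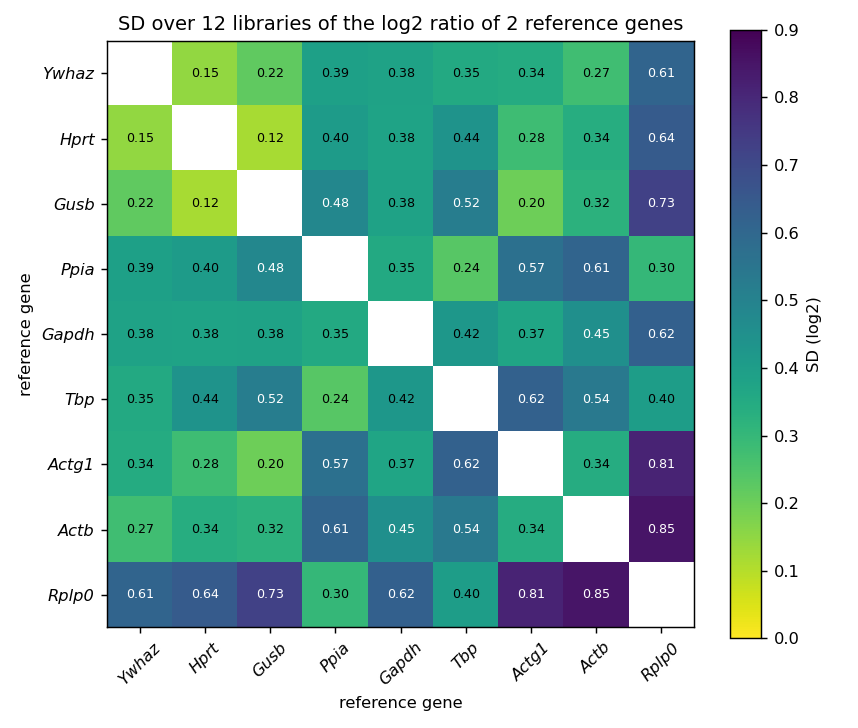
SD over 12 libraries of the log2 ratio of each pair among the 9 reference genes, with genes ordered by their mean SD and darker cells for wider ratios. The lightest cell is Hprt with Gusb at 0.12 and the darkest is Actb with Rplp0 at 0.85.

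The effect of the reference on a target was computed for 6 genes that are also qPCR targets here. Their counts were divided by those of each reference in the same library, which gives a ratio of sequencing counts and not a qPCR value. With 3 against 3 libraries the exact permutation test (two-sided) cannot give a p below 0.1. Changing the reference moves every target by the same factor: by the fitted changes, the fold of SI over LI in tissue was 1.90 times as high with Rplp0 as with Actb, and in monolayers 0.527 times as high with Gapdh as with Actb. Actb gave the lowest SI over LI fold of all 9 references in tissue, and Gapdh in monolayers.

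Slc19a1, the reduced folate carrier, was 1.49-fold higher in SI than in LI tissue relative to Actb and 2.85-fold relative to Rplp0, and it was above 1 with all 9 references (exact p = 0.1 with Actb). In monolayers the fold was 1.24 with Actb, 1.33 with Ywhaz and 0.654 with Gapdh, and 6 of 9 references put it above 1. Slc46a1, the proton-coupled folate transporter, kept its direction with all 9 references, at 2.06 to 3.93 in tissue and 0.214 to 0.433 in monolayers. Mki67, the proliferation marker Ki67, was 0.774 in SI over LI tissue with Actb (exact p = 0.2) and 1.48 with Rplp0, with 7 of 9 references above 1. In monolayers it was 1.05 with Actb and 0.552 with Gapdh, with 3 of 9 above 1. Egfr stayed below 1 with all references, at 0.465 to 0.888 in tissue and 0.204 to 0.413 in monolayers. The Cyp3a genes, which encode drug-oxidising cytochromes, stayed above 1 with all references, Cyp3a13 at 2.59 to 4.94 and 3.43 to 6.95 and Cyp3a11 at 148 to 283 and 74.4 to 151, where Cyp3a11 had as few as 14 counts in an LI tissue library.

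Between tissue and culture the references moved the targets further. In LI the fold of monolayers over tissue for Slc46a1 was 0.605 with Actb and 2.50 with Rplp0, above 1 with 4 of 9 references. Slc19a1 in LI was 0.932 with Actb and up to 3.84 with Rplp0, above 1 with 8 of 9. Mki67 in LI was 0.367 with Actb and 1.52 with Rplp0. Egfr was above 1 with every reference, at 2.48 with Actb and 10.2 with Rplp0 in LI, and in SI from 1.304 with Actg1 to 3.65 with Rplp0, with 2.06 for Actb.

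**Figure D4:**
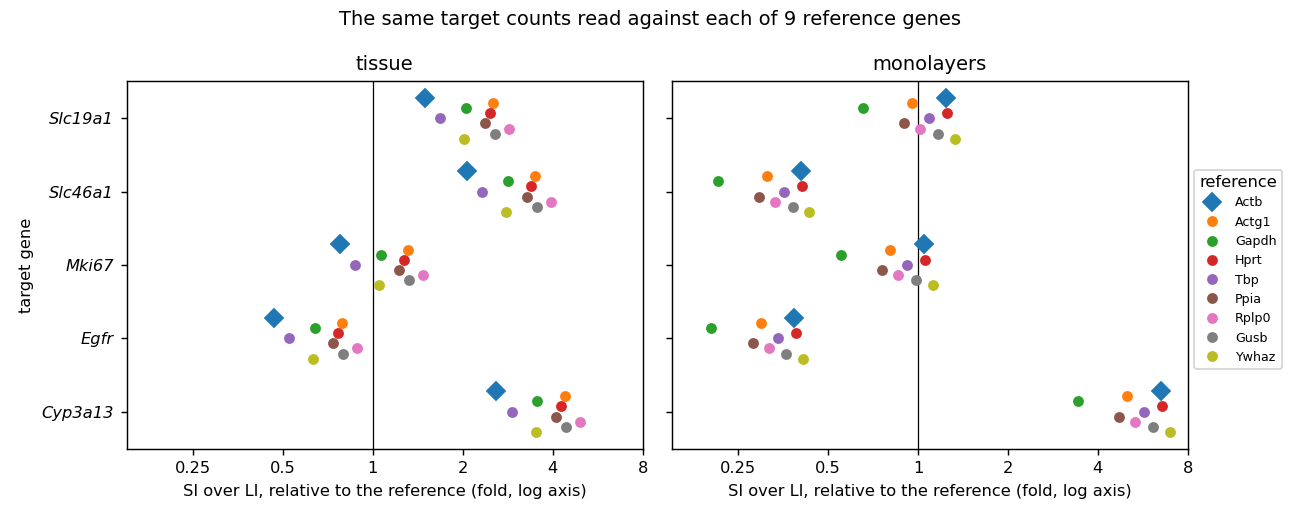
SI over LI fold of 5 target genes relative to each of the 9 reference genes (coloured points, diamonds for Actb) in tissue and in monolayers, on a log axis. Points of 1 target spread over about the same distance in every row, and those of Mki67 and, in monolayers, Slc19a1 lie on both sides of 1.

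The change in culture differed between regions for 7 of 9 members, where 46.3% of all genes did, 23.3% with a positive and 23% with a negative difference. This was the interaction of region and preparation, a test of the change in SI minus the change in LI. It was positive for Gapdh (0.86 ± 0.08, adjusted p = 3.37e-07), Rplp0 (0.70 ± 0.08, adjusted p = 4.76e-06), Actg1 (0.63 ± 0.15, adjusted p = 0.00336), Ppia (0.61 ± 0.12, adjusted p = 5.47e-04) and Gusb (0.35 ± 0.07, adjusted p = 6.10e-04). It was negative for Actb (-0.52 ± 0.14, adjusted p = 0.00869) and Ywhaz (-0.18 ± 0.07, adjusted p = 0.0487). Thus Actb and Actg1 differed in opposite directions, Actb having risen more in LI and Actg1 more in SI. The intervals were 0.01 to 0.36 for Hprt and -0.44 to 0.11 for Tbp. Hprt, at 0.18 ± 0.08, missed the threshold (adjusted p = 0.073) but was called under 13 of 19 alternatives, with values up to 0.33 without LI monolayer library 3 (adjusted p = 0.00525). The call for Ywhaz was lost under 17 of 19 alternatives and that for Actb under 6 of 19, with adjusted p up to 0.687 and 0.0865. None of the 7 reached 1 on the log2 scale (20% of all genes did), and 4 of 9 intervals, those of Hprt, Tbp, Gusb and Ywhaz, lay within the bound of 0.5 (18.2% of all genes). Of all genes called in this test 50.3% were positive, and 60.3% were with scaling by total counts, where the median over all genes was 0.12 in place of -0.00.

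The genes most like each member over the 12 libraries, by Pearson r on log2 normalized counts, included copies of the members and partners in the same process. For Actg1 and Ppia the closest were the copies Gm12715 (0.993) and Gm10123 (0.978), whose reads cannot be told apart with certainty from those of the parent gene. Actb was closest to Pcdh1 (0.991) and Hprt to St13 (0.995). Gusb was closest to Phgdh (0.998) and Ywhaz to Map1s (0.997). Tbp, which varied least, had the lowest best match, Blvra (0.924). All genes share the libraries and their scaling, so these values are descriptions.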

How the data were processed

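The authors aligned paired-end reads to GRCm38 with STAR 2.7.9a and counted them on GENCODE vM25 genes with featureCounts 2.0.2. They deposited the whole-number counts per gene and also a normalized signal, the counts over 1 DESeq2 size factor per library (tools as listed in the submitters' processing notes, DESeq2 given as 3.13). Among counts of 1 to 20, 73.4% to 77.4% were even, as mates counted separately would give, and a fragment may therefore stand for 2 counts.

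Groups came from the sample labels. The 9 genes and all gene lists were chosen with earlier results of these data known, and adjusted p-values run over all tested genes. Gene names came from the annotation by Ensembl identifier (55227 of 55487 named), and positions, overlaps and copies from GENCODE vM21 on GRCm38. Counts were tested with edgeR 4.0.16 under R 4.3.3 (filterByExpr, TMM, robust glmQLFit and glmQLFTest) in 1 model of the 4 group means, with Benjamini-Hochberg adjustment over 19581 genes within each of 5 comparisons, and a gene was called at an adjusted p under 0.05. Median biological coefficient of variation was 0.127. The code was tested on simulated data. Levels and spreads used log2(normalized signal + 1), and ratios used raw counts. Replicates of a group differed by 2.06 to 6.36 times counting noise, so none was counted as a duplicate. Named genes were the 9 members, the 2 genes most correlated with each, the 5 steadiest coding genes of at least 100 CPM and the 2 of each list with the largest mean change in culture, and some of these are not reported here. Alternatives were DESeq2 1.42.0, other scalings and filters, only the compared groups, a replicate block, added copies and leaving out each library. Correlated replicate numbers were sought as a sign of pairing: of 18 same-numbered pairs none had r over 0.1 (-0.046 to 0.047).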

Additional observations from a re-analysis of the deposited data

Results flagged for a closer look

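For 7 reference genes the change in culture differed between SI and LI by the interaction term of edgeR's quasi-likelihood fit, with n = 3 libraries per group. The difference, SI minus LI on the log2 scale, was 0.86 for Gapdh, 0.70 for Rplp0, 0.63 for Actg1, 0.61 for Ppia and 0.35 for Gusb, and it was -0.52 for Actb and -0.18 for Ywhaz. Those of Gapdh, Rplp0, Actg1, Ppia and Gusb stayed under an adjusted p of 0.05 in all 19 alternatives run, while that of Actb was lost in 6 and that of Ywhaz in 17. SI tissue also had the highest immune marker sum, at 113 to 157 CPM, and the highest mitochondrial share, at 4.56% to 9.16%, and the part of both in these differences was not tested.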

How the results depend on the processing

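Of 34 calls among the 45 values of members, 26 held under every alternative run (20 for each pairwise comparison, 19 for the interaction) and none reversed. The other 8 were lost under 1 or more, in Tbp, Actg1, Ppia, Ywhaz and Actb, and the cause was not tested. Of 11 values not called, 6 were called under 1 or more. Between monolayers these included Actb (-0.081, adjusted p = 0.0423) and Hprt (-0.096, adjusted p = 0.0215) with only the 2 compared groups in the edgeR model. Uncalled values near 0 changed sign: Rplp0 in SI culture was -0.0089 with at least 10 counts in every library, and Gusb between monolayers was -0.025 without a filter, -0.029 with at least 10 counts and -0.026 with DESeq2. With each library left out in turn, Gapdh between tissues ran from -0.10 to 0.034, Ywhaz between tissues from -0.087 to 0.010 and the interaction of Tbp from -0.21 to 0.044. Left out in the same way, the members called at 2-fold in LI culture numbered 1 to 2 and those called between monolayers 3 to 5. Between tissues 5 to 6 were called, against 7 with all libraries.

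Relative to Actg1, Gapdh and Ppia, Slc19a1 in monolayers was -0.067, -0.61 and -0.15 (log2, SI minus LI) in place of 0.31 with Actb. Mki67 in tissue was -0.37 with Actb, and it was 0.39 with Actg1, 0.087 with Gapdh, 0.35 with Hprt, 0.30 with Ppia, 0.56 with Rplp0, 0.41 with Gusb, 0.070 with Ywhaz and 0.18 with the geometric mean of the 9. Mki67 in monolayers was 0.066 with Actb (-0.051 to 0.18 with each library left out), and it was -0.31 with Actg1, -0.86 with Gapdh, -0.12 with Tbp, -0.40 with Ppia, -0.22 with Rplp0, -0.025 with Gusb and -0.18 with the geometric mean. These follow from the construction of the ratio.

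Same-numbered libraries showed no correlation over 0.1, which cannot show that the samples were unpaired. With the replicate block 4 members were called between monolayers, in place of 5, as Actg1 had 0.29 with an adjusted p of 0.0528, and 6 for the interaction, in place of 7, as Ywhaz had an adjusted p of 0.0607. The block changed no other call. Over all genes, the median change in LI culture was -0.05 with TMM and -0.17 with upper quartile scaling, and that of the interaction -0.00 with TMM and 0.12 with total counts. Of the genes called in that test 59.2% to 60.5% were positive with any 1 monolayer library left out, against 50.3% with all libraries. With any 1 tissue library left out the share was 49.2% to 50.5%. Calls of at least 2-fold fell from 5110, 7442, 4446 and 4159 to 3140, 4797, 2606 and 2442 for the 4 pairwise comparisons, in the order of the report, with at least 10 counts in every library (fewer genes tested), and intervals within the bound rose from 4221, 2933 and 5521 to 6779, 5599 and 9668 in SI culture, LI culture and between monolayers without a filter (more genes tested). Scaling fixes all levels to the bulk of the RNA, so a change common to most genes, or in RNA per cell, is not seen here.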

Other observations

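Among 2180 coding genes with a mean of at least 100 CPM, the 5 with the lowest SD over the 12 libraries were Dab2ip, Chmp6, Usp5, Glyr1 and Sap18. They were picked on these libraries, so their values describe the pick and support nothing about other samples. Dab2ip, a GTPase-activating protein, had mean normalized counts of 7898 ± 208 (SD, n = 3) in SI crypts and 7939 ± 113 in LI crypts, and its means were 7932 ± 303 for SI monolayers and 8025 ± 44.7 for LI monolayers, a span of 1.02-fold. Chmp6, a subunit of the ESCRT machinery, spanned 1.10-fold and Usp5, a deubiquitinase, 1.07-fold between group means. The span of Tbp was 1.24-fold and that of Actb 2.57-fold.

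Ribosomal protein genes other than Rplp0 were among the steadier sets. Of 16 listed, 15 had group means within 1.5-fold of each other and none spanned 2-fold or more, with a median SD of 0.15 against 0.28 for Rplp0 itself. All 14 listed genes of glycolysis spanned at least 2-fold. Of the 18 genes of TFIID and the basal factors, 10 lay within 1.5-fold.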
